A study of Homo sapiens with 8 samples.

Results

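The genes examined were the integrins, laminins and collagens, 38 genes in all: 16 integrin chains, 8 laminin chains and 14 collagen chains. They were taken as the rows of the deposited table whose Ensembl identifier carries one of these 38 symbols in GENCODE, and all 38 were found among the 43841 genes of the table. H3K27ac peaks paired with them, at most 20 kb from the gene, numbered 443 of 126470. H3122 is a human lung adenocarcinoma cell line that carries EML4-ALK, and the study asked how resistance to different ALK inhibitors changes RNA and active chromatin. Values were compared between therapy-naive H3122 cells (H3122p) and 3 lines evolved from them, erCriz0 (evolved in 0.5 µM crizotinib), erAlec0 (2 µM alectinib) and erLor0 (2 µM lorlatinib). RNA-seq and H3K27ac ChIP-seq were available as 1 library of each kind per line.

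All 4 lines share the H3122 background and, per the labels of the ChIP-seq samples, growth in RPMI with serum and a DMSO vehicle of 0.1%. The resistant lines were derived by gradual dose escalation, and their RNA was taken after a drug holiday. The study's methods do not mention such a holiday for ChIP-seq, nor whether both came from the same cultures. RNA and peaks of a line may therefore differ in drug state. Each is 1 derived population and not a set of independent derivations. The labels also name erCriz1, erLor1, a further lorlatinib sample and a pooled input, which were not analysed here. With 1 library per line, differences between lines and differences between libraries cannot be told apart, no test was possible and no error can be given. In such bulk samples fewer cells that express a gene and less RNA per cell cannot be told apart either.

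Integrins are receptors of an alpha and a beta chain that bind matrix outside the cell and link it to actin or keratin filaments inside. Laminins are trimers of an alpha, a beta and a gamma chain that assemble, together with a network of type IV collagen, into the basement membrane under epithelia. Fibrillar, microfibrillar and anchoring collagens form the matrix beyond it, and epithelial tumour cells can make part of this matrix themselves. In lung epithelium, integrins carrying the ITGB1 chain bind laminin, collagen and fibronectin, and the pair ITGA6 and ITGB4 holds the cell to laminin at hemidesmosomes.

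Levels are rlog values, a log2 scale computed by the authors, on which 1 unit is a 2-fold difference. A change is the level in a resistant line minus that in H3122p, and genes that changed by at least 1, the limit in the study's methods, are called up or down. The same limit was used here for peaks. A gene was called expressed when its rlog reached log2 of 25 reads (4.64) in at least 1 library. Of the 38 genes, 32 were expressed, as were 12700 of all genes, and 29 already passed in H3122p. The 6 that were not were ITGA7, ITGA10, LAMA1, LAMA4, COL16A1 and COL17A1. COL5A2, COL12A1 and ITGB8 passed only through a resistant line. rlog pulls the changes of genes with few reads toward 0, so those of the lowest genes are understated.

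The cell type labels were checked against marker genes. All 6 epithelial markers (EPCAM, KRT8, KRT18, KRT19, CDH1 and CLDN4) were expressed in every line, at rlog 10.67 to 15.17. Of 3 lung epithelial markers NKX2-1 was expressed (8.68 in H3122p), whereas SFTPB and NAPSA stayed under the minimum in all lines. None of 3 leukocyte markers was expressed, and PTPRC was listed at 0 in all libraries. Of 3 endothelial markers PECAM1 and VWF were near 0, but CDH5 was 4.10 in H3122p, 4.28 in erCriz0, 5.78 in erAlec0 and 5.64 in erLor0. Of 4 fibroblast markers in the table COL1A1 alone was expressed (9.49 in H3122p).

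The sequences below come from starts and peaks described further on, and no function of theirs was tested. Each is written 5′ to 3′ with matches to AP-1 (TGANTCA), TEAD (CATTCC) or Sp1 (GGGCGG) in capitals, searched on both strands. No matches overlap in the runs printed. The first 4 runs lie upstream of RefSeq starts (GRCh38.p14), outside annotated exons, on the strand of the gene. The COL4A1 and ITGA1 runs are shown because H3K27ac over these starts passed the limit, the ITGA5 run because its start peak and RNA had the same order of lines without the peak passing, and the LAMA3 run for its AP-1 matches, since the peak over this inner start did not pass.
COL4A1 and COL4A2, between their starts, chr13:110307158-110307257, minus strand: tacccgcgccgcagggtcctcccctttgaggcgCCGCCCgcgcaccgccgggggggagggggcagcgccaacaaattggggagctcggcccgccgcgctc
ITGA1, chr5:52787666-52787915, plus strand: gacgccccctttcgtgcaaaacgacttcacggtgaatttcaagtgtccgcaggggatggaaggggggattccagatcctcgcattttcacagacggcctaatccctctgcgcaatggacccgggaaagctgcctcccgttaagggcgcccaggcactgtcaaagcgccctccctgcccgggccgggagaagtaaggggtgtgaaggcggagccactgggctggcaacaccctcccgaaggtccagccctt
ITGA5, chr12:54419267-54419516, minus strand: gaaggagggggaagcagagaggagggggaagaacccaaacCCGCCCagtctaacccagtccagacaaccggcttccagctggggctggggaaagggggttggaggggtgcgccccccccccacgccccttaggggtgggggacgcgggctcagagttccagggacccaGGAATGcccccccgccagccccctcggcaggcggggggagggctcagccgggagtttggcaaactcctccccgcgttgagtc
LAMA3, inner start, chr18:23872770-23873019, plus strand: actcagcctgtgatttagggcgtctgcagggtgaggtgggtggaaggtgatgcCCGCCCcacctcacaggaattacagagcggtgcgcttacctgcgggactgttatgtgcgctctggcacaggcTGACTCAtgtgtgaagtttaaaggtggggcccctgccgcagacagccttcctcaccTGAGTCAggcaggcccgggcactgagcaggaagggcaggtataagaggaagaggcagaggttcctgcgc

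The other 3 are the central 200 bases, on the plus strand of hg38, of member peaks with extreme changes: the largest rise and the largest fall in erAlec0 (LAMB1 and COL6A1) and the largest fall in erLor0 (ITGA2).
LAMB1, peak inside the gene, chr7:107951749-107951948: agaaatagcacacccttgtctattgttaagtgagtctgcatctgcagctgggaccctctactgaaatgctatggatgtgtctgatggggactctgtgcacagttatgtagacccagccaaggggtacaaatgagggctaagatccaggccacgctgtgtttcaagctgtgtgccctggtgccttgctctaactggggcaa
COL6A1, peak upstream of the gene, chr21:45979150-45979349: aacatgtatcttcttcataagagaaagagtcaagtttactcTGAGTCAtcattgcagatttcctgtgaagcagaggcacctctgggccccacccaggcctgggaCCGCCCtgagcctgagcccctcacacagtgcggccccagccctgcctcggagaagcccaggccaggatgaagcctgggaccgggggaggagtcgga
ITGA2, intronic peak, chr5:53007189-53007388: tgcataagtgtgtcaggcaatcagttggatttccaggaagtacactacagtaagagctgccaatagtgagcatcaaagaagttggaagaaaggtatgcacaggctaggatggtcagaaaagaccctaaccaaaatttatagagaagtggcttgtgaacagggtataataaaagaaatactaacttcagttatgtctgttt

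RefSeq promoter windows were found for 30 of the 38 genes. Among all upstream windows of 250 bases, 6.57% held AP-1, 11.9% TEAD and 42.6% Sp1, and among windows of 100 bases 31.3% held Sp1. The LAMA3 run held 2 AP-1 matches and 1 Sp1 match, the ITGA5 run 1 TEAD and 1 Sp1 match, the COL4A1 run 1 Sp1 match, and the ITGA1 run none. Among the central 200 bases of all peaks 6.42% held AP-1, 10.9% TEAD and 9.78% Sp1, and of the 443 peaks examined 4.29%, 9.03% and 10.2%. Of the 3 printed, the COL6A1 peak held 1 AP-1 and 1 Sp1 match and the others none.

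Members that passed the limit against H3122p did so upwards and in different lines. In erCriz0 6 of the 38 were up and 0 down, beside 2.65% up and 1.65% down of the 12700 expressed genes and 0.819% and 0.481% of all genes. In erAlec0 7 were up and 0 down, beside 2.45% and 2.07% of expressed genes and 0.719% and 0.609% of all. In erLor0 2 were up and 0 down, beside 1.1% and 0.74% of expressed genes and 0.322% and 0.219% of all. All of these members were expressed, so that of the 32 expressed members 18.8% were up in erCriz0, 21.9% in erAlec0 and 6.25% in erLor0. However, COL5A2, up in erCriz0 and erAlec0, and COL12A1, up in erCriz0, reached the expression minimum only in resistant lines. The filter itself thus adds to the shares of expressed members in erCriz0 and erAlec0. Altogether 13 members passed in at least 1 line, against 8.34% of expressed genes, 11 of them in 1 line and 2 in 2 lines. From the same RNA the study reports increased expression of matrix and matrix receptor genes, among genes tied to therapy resistance before. The members were chosen with earlier results of these data known, so neither their shares nor their upward direction is independent evidence.

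In erCriz0, erAlec0 and erLor0 the 38 members had median changes of 0.07, 0.37 and 0.31, where that of all expressed genes was -0.017, 0.002 and -0.0043. Above H3122p were 21, 31 and 28 of the 38 members in erCriz0, erAlec0 and erLor0. These are 55.3%, 81.6% and 73.7%, beside 47.9%, 50.3% and 49.4% of expressed genes. In all 3 resistant lines 16 members were above H3122p and 5 below, where 22.5% and 24.5% of expressed genes were. The 3 comparisons share the H3122p library.

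**Figure D1:**
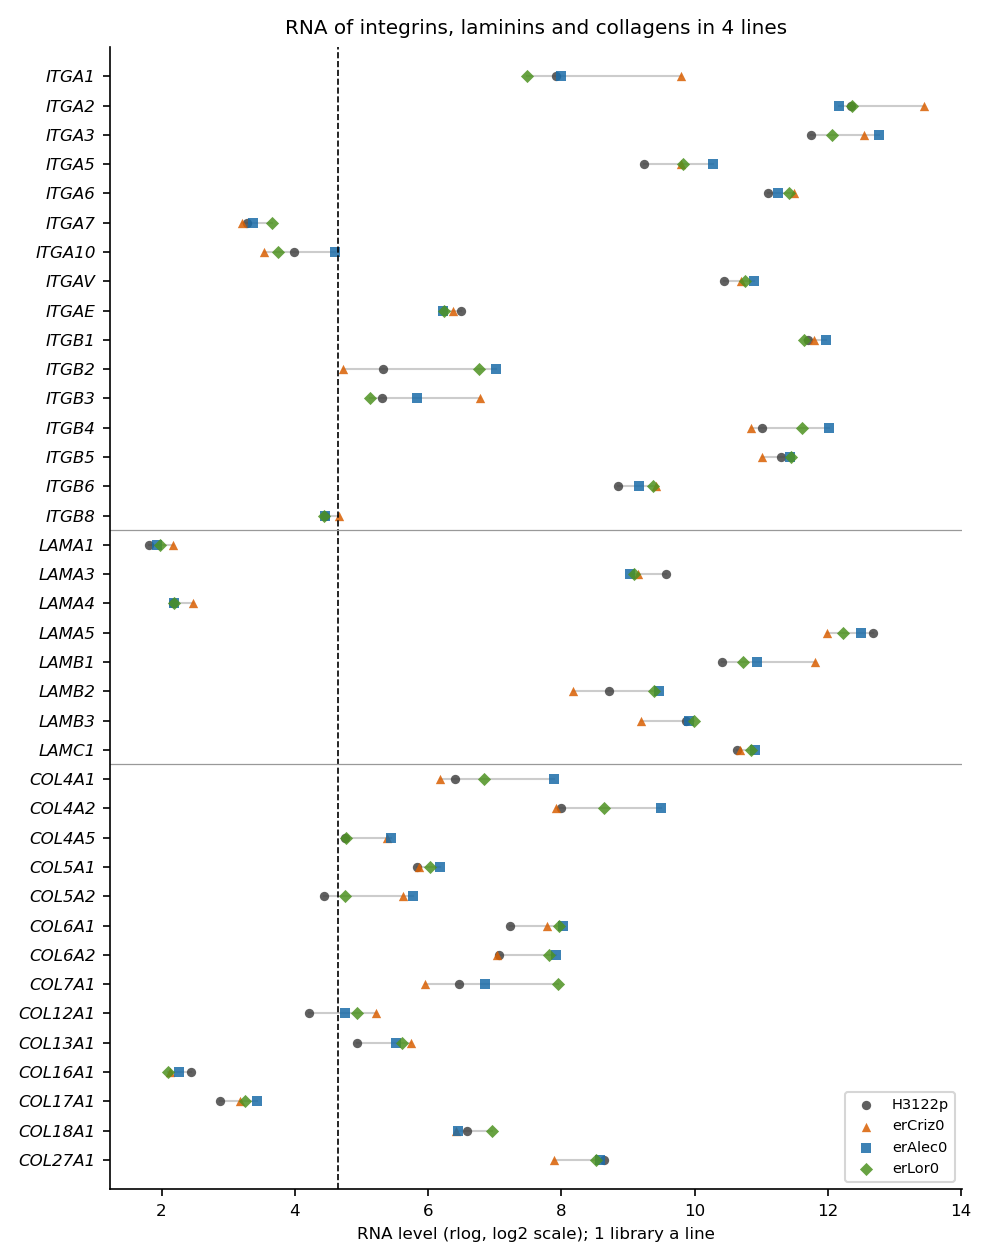
RNA level (rlog, log2 scale) of the 38 genes in 4 lines, 1 point per library, with the dashed line at 4.64, the minimum for an expressed gene, and grey rules between integrins, laminins and collagens. ITGA1 in erCriz0 (9.79), ITGB2 in erAlec0 and erLor0 (7.02 and 6.77) and COL7A1 in erLor0 (7.95) stand apart from their other libraries.

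**Figure D2:**
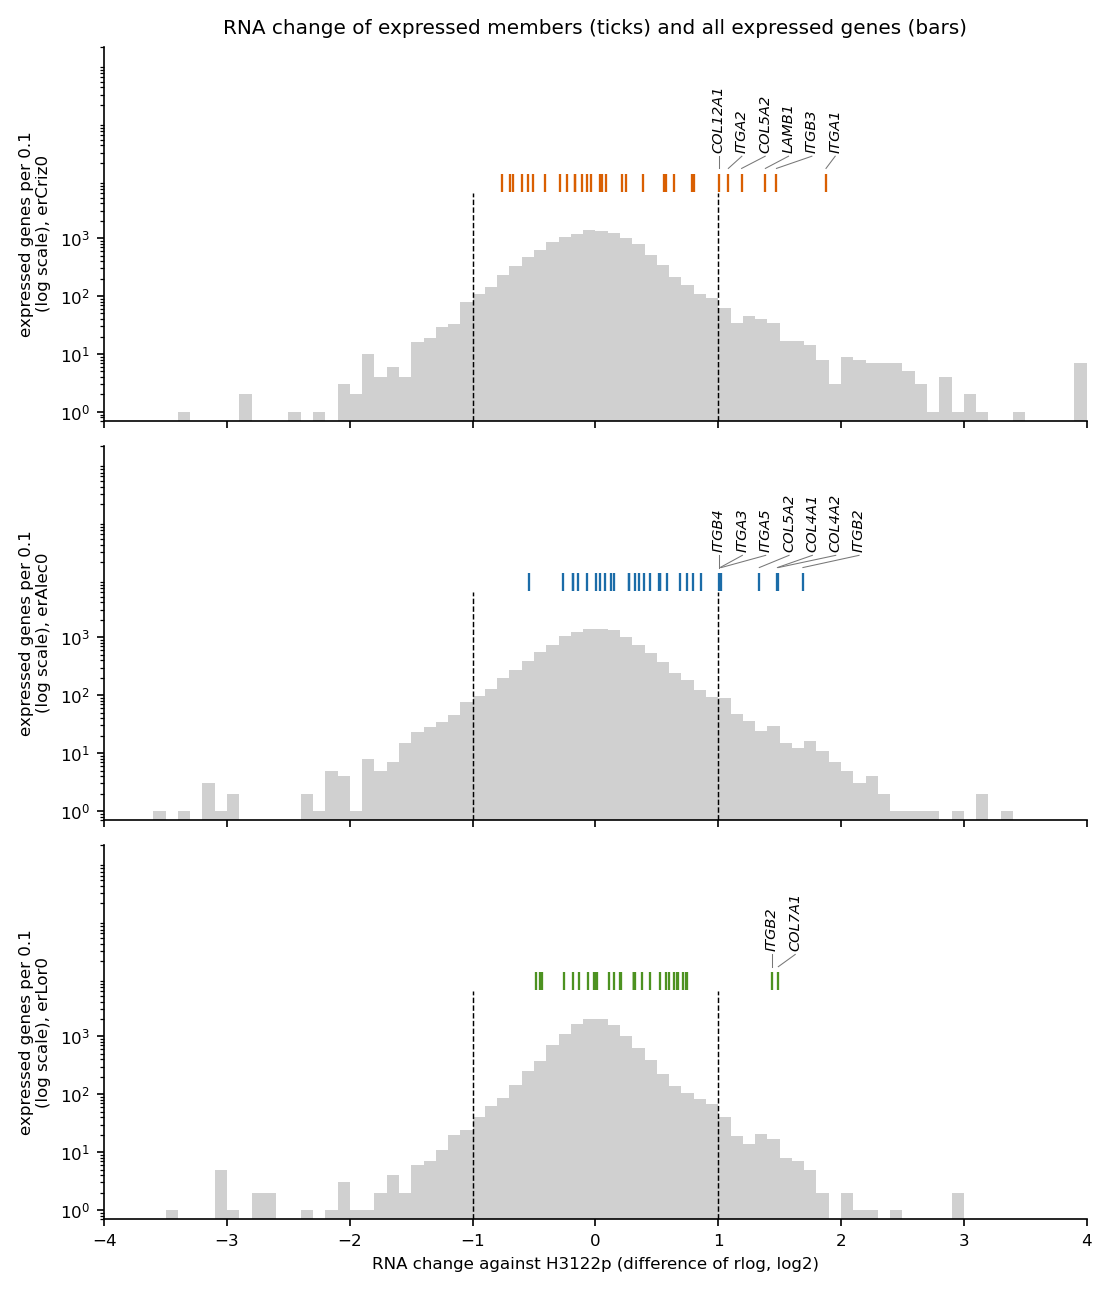
RNA change against H3122p of the 32 expressed members (ticks) above the distribution of all 12700 expressed genes (grey bars, genes per 0.1 log2, log axis, values past 4 in the end bar). Dashed lines mark a change of 1, and the named members past it are all on the right.

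Of 3 collagen-binding integrins ITGA1 and ITGA2 passed, both in erCriz0. ITGA1 (ENSG00000213949.10, chr5:52787916-52959209), the alpha chain of a collagen IV receptor, had rlog 7.91 in H3122p, 9.79 in erCriz0, 7.99 in erAlec0 and 7.48 in erLor0. The erCriz0 library stood alone, 1.88 above H3122p, while erAlec0 was 0.08 above it and erLor0 0.43 below it (-0.43). Its neighbour ITGA2 (ENSG00000164171.11, chr5:52989340-53094779), the alpha chain of the main epithelial collagen receptor, was 12.35, 13.43, 12.17 and 12.35 in the same order. It was 1.08 above H3122p in erCriz0 alone, with changes of -0.18 and 0.00 in erAlec0 and erLor0.

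Per kilobase of annotated exon, ITGA2 had the highest level of the 38 genes in H3122p (9.37) and ITGA1 a far lower one (3.70). ITGA10, the remaining collagen-binding chain, lay under the expression minimum in every library. An exon of ITGA1 shares 499 bases with PELO on the same strand, whose rlog was 8.51 in H3122p, 8.68 in erCriz0, 7.60 in erAlec0 and 8.17 in erLor0. The part of PELO reads in the ITGA1 values was not tested. Among 5 expressed neighbours within 1 Mb, the change in erCriz0 ran from -0.01 to 1.28, with a median of 0.30, and the highest was that of FST. Without the median of expressed genes within 5 Mb the change of ITGA2 was 0.76 and no longer passed, and with quantile normalization it was 0.99.

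H3K27ac over the starts of both genes was highest in erCriz0 and below H3122p in the other lines. The peak over the ITGA1 start (chr5:52786160-52789509), which also covers the start of PELO, was 7.25 in H3122p, 8.31 in erCriz0, 6.06 in erAlec0 and 6.04 in erLor0. That is a change of 1.06, -1.19 and -1.21. The peak over the ITGA2 start (chr5:52985895-52990949) was 9.52, 10.19, 8.12 and 8.33, or 0.67, -1.40 and -1.19. RNA of both genes was therefore highest where the start peak was highest, but ITGA2 RNA in erAlec0 and erLor0 stayed within 0.18 of H3122p with a start peak more than 1 below.

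Most peaks along ITGA2 were lower in erAlec0 and erLor0. Of its 22 peaks 16 were down in erAlec0 and 14 in erLor0, and 0 in erCriz0. The intronic peak chr5:53002985-53011591, whose centre is printed above, was 8.93 in H3122p, 9.42 in erCriz0, 6.42 in erAlec0 and 6.48 in erLor0. This peak had the largest fall of all member peaks in erLor0 (-2.45). The change in erAlec0 was nearly as large, -2.51. Peaks within 5 Mb had median changes of -0.14 in erAlec0 and -0.17 in erLor0.

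**Figure D3:**
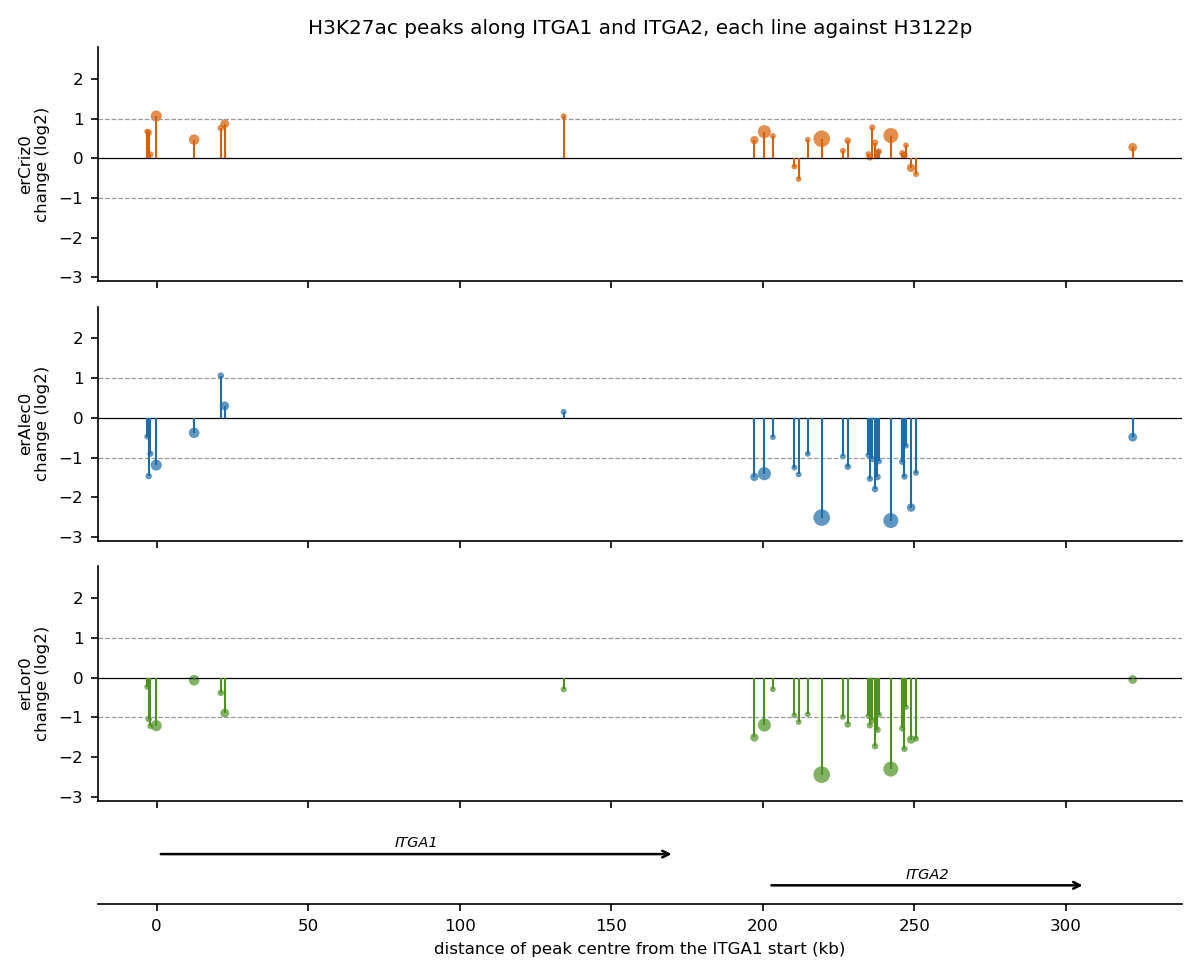
Change of each H3K27ac peak (log2, vertical) in 3 resistant lines against the distance of its centre from the ITGA1 start (kb, horizontal), with dot area growing with peak length and arrows for the genes. From 190 to 260 kb 16 of 21 peaks are down in erAlec0 and 14 in erLor0, and none in erCriz0.

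Of 4 laminin-binding integrins ITGA3 and ITGB4 passed, both in erAlec0. ITGA3 (ENSG00000005884.18, chr17:50055968-50090481), the alpha chain of a laminin receptor of epithelia, was 11.75 in H3122p, 12.53 in erCriz0, 12.77 in erAlec0 and 12.06 in erLor0. ITGA3 was above H3122p by 0.78, 1.01 and 0.31. ITGB4 (ENSG00000132470.14, chr17:75721328-75757818), the hemidesmosomal beta chain, was 11.01, 10.84, 12.01 and 11.61, with changes of -0.17, 1.01 and 0.60. Both sit just inside the limit, and quantile normalization took them to 0.88 and 0.92.

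ITGA6, the alpha chain that pairs with ITGB4, did not pass in any line. Its level was 11.11 in H3122p, 11.49 in erCriz0, 11.25 in erAlec0 and 11.42 in erLor0, a spread of 0.39 over the 4 libraries. ITGB1, the beta chain shared by the laminin, collagen and fibronectin receptors, was 11.70, 11.79, 11.98 and 11.64, a spread of 0.34. Among the alpha chains that pair with it, ITGA1, ITGA2, ITGA3 and ITGA5 had spreads of 2.31, 1.26, 1.01 and 1.02, while ITGA6 and ITGAV, at 0.39 and 0.44, were close to that of the common chain.

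Start peaks of ITGA3, ITGB4 and ITGA6 were highest in other lines than their RNA. The ITGA3 peak (chr17:50046068-50068729), one of the longest here, was 12.65 in H3122p, 12.89 in erCriz0, 11.93 in erAlec0 and 12.08 in erLor0. This peak lay 0.72 below H3122p (-0.72) in erAlec0, the line with the highest ITGA3 RNA, and 5 of the gene's 16 peaks were down there. The ITGB4 peak was 9.87 in both H3122p and erAlec0 and 10.31 and 10.27 in erCriz0 and erLor0. The ITGA6 peak was lower in all 3 lines, by -0.89, -0.82 and -0.43, while its RNA was above H3122p in all of them.

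Receptors of fibronectin and vitronectin differed by chain. ITGA5 (ENSG00000161638.11, chr12:54395261-54419266), the alpha chain of the classical fibronectin receptor, was 9.25 in H3122p, 9.80 in erCriz0, 10.27 in erAlec0 and 9.82 in erLor0. All 3 resistant lines were above H3122p, by 0.56, 1.02 and 0.58, and erAlec0 was just inside the limit. The regional alternative took the erAlec0 value to 0.84. Its start peak, over the upstream run printed above, was 6.98 in H3122p, 7.06 in erCriz0, 7.61 in erAlec0 and 7.57 in erLor0, the same order of lines as its RNA.

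ITGB3 (ENSG00000259207.7, chr17:47253846-47311816), a beta chain that pairs with ITGAV in a vitronectin receptor, was 5.30 in H3122p, 6.78 in erCriz0, 5.83 in erAlec0 and 5.12 in erLor0. ITGB3 passed in erCriz0 (1.47) and not in erAlec0 (0.53) or erLor0 (-0.18). The peak taken as its promoter covers an inner start only and was lowest in erCriz0, with changes of -0.60, 1.48 and 0.16. A peak in its first exon (chr17:47253919-47254776) was highest in erCriz0, with changes of 0.87, 0.40 and 0.58. ITGAV, ITGB5, ITGB6 and ITGB8 stayed between -0.29 and 0.57 in RNA.

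ITGB5 had the largest fall of a start peak. Its longest peak over an annotated start (chr3:124876600-124885229) was 9.41 in H3122p, 9.55 in erCriz0, 7.30 in erAlec0 and 7.96 in erLor0, while ITGB5 RNA was 11.30, 11.01, 11.43 and 11.45. That peak lies over an inner start. The peak over the outer end of the gene (chr3:124900814-124901510) changed by -0.04, 0.09 and 0.39.

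ITGB2 passed in both erAlec0 and erLor0. ITGB2 (ENSG00000160255.18, chr21:44885953-44931989), the beta chain of leukocyte integrins, was 5.33 in H3122p, 4.73 in erCriz0, 7.02 in erAlec0 and 6.77 in erLor0. Its changes were -0.60, 1.69 and 1.44, so erCriz0 lay below H3122p and the other lines well above it. The leukocyte markers PTPRC and CD3E were at or below 0 in all 4 libraries and CD14 ran from 4.31 to 4.53, under the expression minimum. The endothelial marker CDH5 was higher in the same lines, by 1.68 in erAlec0 and 1.54 in erLor0, with PECAM1 and VWF near 0, and its part in the result was not tested. ITGAE, the other chain of this class, was between 6.23 and 6.49.

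None of the 13 peaks of ITGB2 passed the limit in any line. Its longest start peak was 8.56 in H3122p, 7.93 in erCriz0, 8.66 in erAlec0 and 8.79 in erLor0, which keeps erCriz0 the lowest but puts erAlec0 only 0.10 above H3122p. The peak over its outer end (chr21:44931847-44932986) changed by 0.36, 0.20 and 0.80. Among 26 expressed neighbours between ITGB2 and COL6A2 and within 1 Mb of them, 0 were up in erAlec0, with a median of 0.34.

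Among laminins only LAMB1 passed the limit. LAMB1 (ENSG00000091136.14, chr7:107923799-108003187), a beta chain of laminins widely made outside hemidesmosomes, was 10.42 in H3122p, 11.80 in erCriz0, 10.94 in erAlec0 and 10.73 in erLor0. LAMB1 was above H3122p in all resistant lines, by 1.38, 0.52 and 0.31. LAMB1 shares 300 exonic bases with DLD on the opposite strand, and DLD ran from 9.56 to 9.67.

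H3K27ac at LAMB1 put another line first. The start peak was 5.08 in H3122p, 5.58 in erCriz0, 6.12 in erAlec0 and 5.99 in erLor0. Inside the gene, the peak chr7:107951140-107952556 was 4.47 in H3122p, 3.92 in erCriz0, 7.66 in erAlec0 and 5.13 in erLor0. Its change of 3.19 in erAlec0 was the largest rise of all 443 member peaks in that line. In erCriz0, the line with the highest LAMB1 RNA, it was below H3122p (-0.55).

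The alpha and beta chains of the hemidesmosomal laminin did not pass in any line. LAMA3, its alpha chain, was 9.57 in H3122p, 9.16 in erCriz0, 9.03 in erAlec0 and 9.09 in erLor0. All 3 changes were below 0, at -0.41, -0.54 and -0.48. LAMB3, its beta chain, was 9.87, 9.20, 9.91 and 9.99, a change of -0.67 in erCriz0 and of 0.04 and 0.11 in the others.

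LAMA3 chromatin differed between its starts. The peak over the outer start (chr18:23689076-23690261) was 4.67 in H3122p, 4.83 in erCriz0, 6.22 in erAlec0 and 4.52 in erLor0, a rise of 1.54 in erAlec0 against lower RNA. The peak over the inner start (chr18:23872871-23873530), which reaches into the printed run with 2 AP-1 matches, was 4.95, 5.60, 4.59 and 4.79. Of 12 LAMA3 peaks 7 were up in erAlec0, and 0 in erCriz0 and erLor0. Peaks within 5 Mb were also higher in erAlec0, with median changes of 0.03, 0.63 and 0.21 in erCriz0, erAlec0 and erLor0. The changes given for LAMA3 peaks include this regional rise. The RNA value is summed over the gene and does not tell transcripts from the separate starts apart.

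LAMA5, the alpha chain typical of adult epithelial basement membrane, was the most abundant laminin chain per kilobase of exon in H3122p (8.84) and was below H3122p in all lines (-0.70, -0.18 and -0.45). Of its 26 peaks 10, 12 and 13 were down in erCriz0, erAlec0 and erLor0. Peaks within 5 Mb of LAMA5 were lower too, with median changes of -0.26, -0.58 and -0.34. LAMC1, the gamma chain of most laminins, stayed within 0.27 of H3122p. LAMB2, a beta chain that can replace LAMB1, was -0.55, 0.75 and 0.67. LAMA1 and LAMA4 were not expressed.

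Of 3 type IV collagen chains COL4A1 and COL4A2 passed, both in erAlec0. COL4A1 (ENSG00000187498.16, chr13:110148963-110307157) and COL4A2 (ENSG00000134871.19, chr13:110305812-110513209) encode the chains of the common basement membrane collagen and are transcribed in opposite directions from RefSeq starts that lie 127 bases apart. COL4A1 was 6.40 in H3122p, 6.17 in erCriz0, 7.88 in erAlec0 and 6.85 in erLor0, or -0.23, 1.48 and 0.45. COL4A2 was 7.998, 7.93, 9.49 and 8.63, or -0.07, 1.49 and 0.64.

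Both genes thus had the same order of lines, with erAlec0 at the top, erLor0 between and erCriz0 at or just under H3122p. Of 9 expressed neighbours within 1 Mb 0 were up in erAlec0, and their changes there ran from -0.89 to 0.18. COL4A5, a chain of another type IV network encoded on chromosome X, was 4.75 in H3122p, 5.39 in erCriz0, 5.44 in erAlec0 and 4.76 in erLor0. COL4A5 did not pass in any line and was near the expression minimum.

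The peak over the shared start (chr13:110306585-110307820) moved further than the RNA. It was 4.03 in H3122p, 4.89 in erCriz0, 6.23 in erAlec0 and 5.95 in erLor0, a change of 0.86, 2.20 and 1.92. It covers the printed run between the starts. In erCriz0 and erLor0 the peak was thus above H3122p by more than the RNA of either gene. The longest peak over an annotated COL4A2 start, used for COL4A2 in the promoter counts below, is another (chr13:110503934-110509148). That peak lies over an inner start and changed by 0.27, 0.10 and 0.13 in erCriz0, erAlec0 and erLor0. The start peak of COL4A5 was 3.28, 3.02, 4.81 and 4.02, with a change of 1.52 in erAlec0.

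Chromatin along COL4A2 and past its end had separate parts with different lines on top. From 5 kb before to 60 kb after the COL4A1 start along the chromosome, into COL4A2, lay 13 peaks, of which 12 were up in erAlec0, 2 in erLor0 and 0 in erCriz0, with medians of 1.48, 0.13 and -0.23. Between 180 and 240 kb, at the end of COL4A2 and beyond, 19 peaks held 6 that were up in erCriz0 and 0 in erAlec0 and erLor0, with medians of -0.22 and -0.26 in the last 2 and 0.70 in erCriz0. The limits of these stretches were set after the values were seen. All 6 lie past the end of COL4A2. The longest peak at the far end (chr13:110522619-110528765) was 8.65 in H3122p, 10.12 in erCriz0, 8.14 in erAlec0 and 7.66 in erLor0. That peak lies 9410 bases past COL4A2, is paired with 3 genes and overlaps the neighbour RAB20 (chr13:110523066-110561722). RNA in erCriz0 changed by -0.07 for COL4A2 and 0.06 for RAB20. To which gene the peak belongs was not tested.

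**Figure D4:**
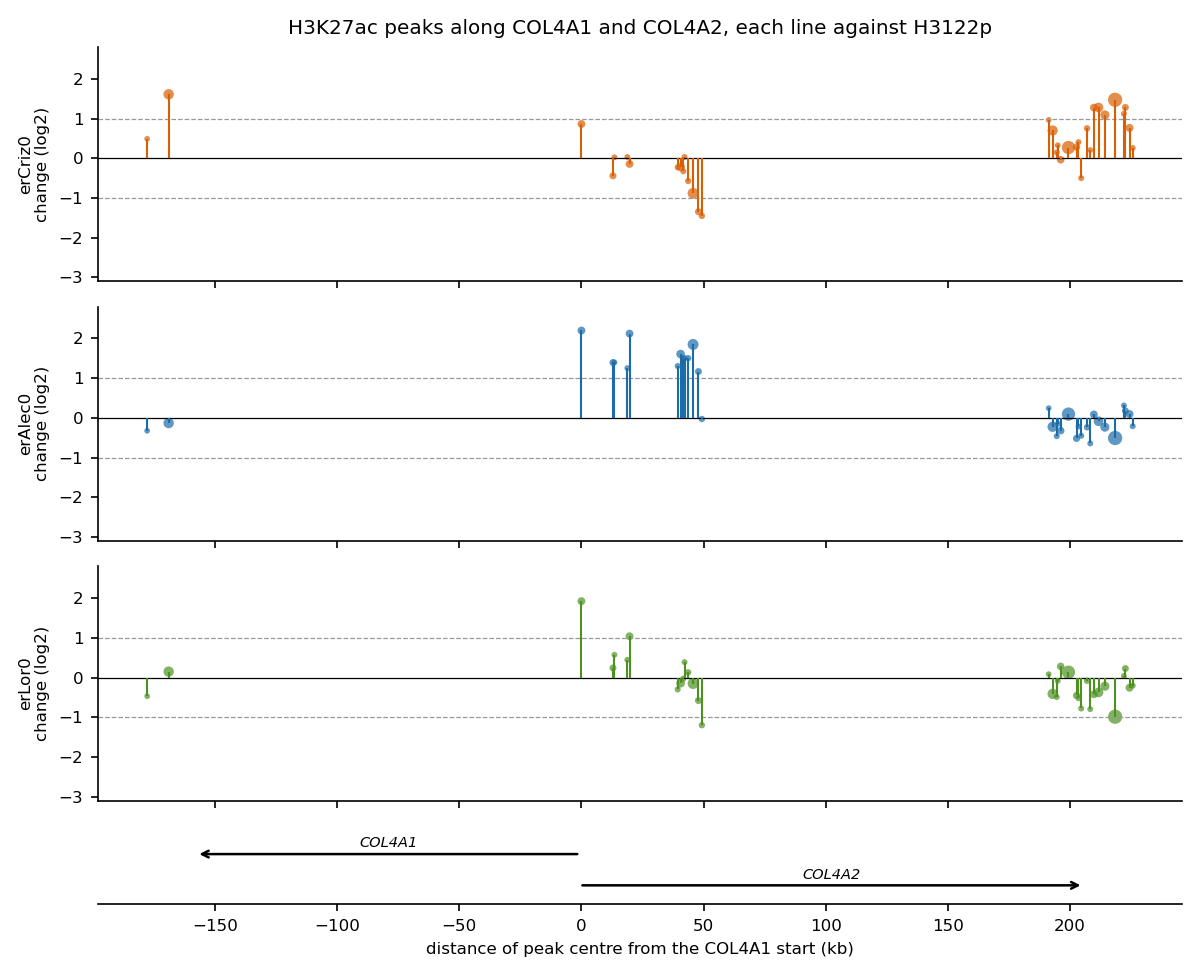
Change of each H3K27ac peak (log2, vertical) in 3 resistant lines against the distance of its centre from the COL4A1 start (kb, horizontal), with dot area growing with peak length and arrows for the genes. Near the shared start 12 of 13 peaks are up in erAlec0, and past 180 kb 6 of 19 are up in erCriz0.

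Other collagens passed in single lines or a pair. COL5A2 (ENSG00000204262.14, chr2:189031898-189225312), a chain of a minor fibrillar collagen, was 4.44 in H3122p, 5.63 in erCriz0, 5.77 in erAlec0 and 4.76 in erLor0. COL5A2 passed in erCriz0 (1.19) and erAlec0 (1.33), not in erLor0 (0.32). Its chromatin went the other way, since 15 of its 20 peaks were down in erCriz0, 12 in erAlec0 and 13 in erLor0. Another 3 were up in erAlec0. None of the 20 covers an annotated start of the gene. COL5A1, its partner chain, stayed between 5.83 and 6.18.

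COL12A1 (ENSG00000111799.21, chr6:75084326-75206053), a collagen that decorates fibrils, was 4.22 in H3122p, 5.22 in erCriz0, 4.75 in erAlec0 and 4.93 in erLor0. Only erCriz0 passed, at 1.00, which fell to 0.98 with quantile normalization and to 0.66 against genes within 5 Mb. Its start peak was 4.04, 4.85, 5.55 and 4.67, and 6 of its 7 peaks were up in erAlec0 and 3 in erLor0, none in erCriz0. RNA and peaks therefore put different lines first.

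COL7A1 (ENSG00000114270.17, chr3:48564073-48595267), the collagen of anchoring fibrils under squamous epithelia, was 6.46 in H3122p, 5.96 in erCriz0, 6.86 in erAlec0 and 7.95 in erLor0. COL7A1 was the only collagen to pass in erLor0 (1.49), with erCriz0 below H3122p (-0.51) and erAlec0 at 0.39. No peak covered its outer start, and of its 13 peaks 0 were up in any line and 1 was down in erAlec0.

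The type VI chains COL6A1 and COL6A2, which form beaded microfibrils, lay 0.80 and 0.86 above H3122p in erAlec0 and 0.74 above it in erLor0 without passing. Upstream of COL6A1, however, the peak chr21:45978379-45980119 was 6.97 in H3122p, 5.62 in erCriz0, 4.13 in erAlec0 and 4.99 in erLor0. Its change of -2.84 was the largest fall of all member peaks in erAlec0, at a distance of 1618 bases from the gene, and 5 of the 7 COL6A1 peaks were down there. The remaining collagens COL13A1, COL18A1 and COL27A1 ranged from -0.76 (COL27A1 in erCriz0) to 0.80 (COL13A1 in erCriz0). COL27A1 also held the largest rise of a member peak in erCriz0 (chr9:114231026-114233325), 1.70, against lower RNA. The largest fall there was a peak inside LAMA5 (chr20:62341245-62341644), -1.86.

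More members passed the limit between erCriz0 and either other resistant line than between erAlec0 and erLor0. Of the 32 expressed members 5 were at least 1 higher in erAlec0 than in erCriz0 and 2 lower, beside 3.21% and 2.68% of expressed genes. The 5 were ITGB2 (2.29), COL4A1 (1.71), COL4A2 (1.56), LAMB2 (1.29) and ITGB4 (1.18), and the 2 were ITGA1 (-1.80) and ITGA2 (-1.26). LAMB2 passes here although it passed in neither line against H3122p, and it is named after its values were seen.

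Between erLor0 and erCriz0, 3 members were higher in erLor0 and 4 lower, beside 2.64% and 2.73%. ITGB2 (2.04), COL7A1 (2.00) and LAMB2 (1.21) were higher, and ITGA1 (-2.31), ITGB3 (-1.65), ITGA2 (-1.08) and LAMB1 (-1.07) lower. Between erLor0 and erAlec0, 1 was higher in erLor0, COL7A1 (1.09), and 2 lower, COL4A1 (-1.04) and COL5A2 (-1.02), beside 0.575% and 0.646%. These 3 differences do not use the H3122p library, but each pair of them shares a line.

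Over all 443 peaks of these genes, losses outnumbered gains. In erCriz0 21 were up and 47 down, or 4.74% and 10.6%, beside 7.0% and 5.94% of all peaks. In erAlec0 64 were up and 87 down, or 14.4% and 19.6%, beside 14.1% and 9.41%. In erLor0 19 were up and 96 down, or 4.29% and 21.7%, beside 7.45% and 8.82%. The median peak change was -0.10, -0.23 and -0.28 in erCriz0, erAlec0 and erLor0, and of all peaks at most 0.0033 from 0.

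Peaks are not spread evenly over the members, from 1 to 34 per gene, and neighbouring peaks are not independent. Of the 443, 123 lay under log2 of 15 reads in all libraries, and 1 peak can be paired with as many as 10 genes. With the 77 peaks paired with 1 gene alone, erAlec0 had 17 up and 15 down and a median of 0.40. LAMA5, ITGA2, COL5A2 and ITGA10 held many of the losses, with 26, 22, 20 and 23 peaks each.

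For 27 expressed members the longest peak over an annotated transcript start was taken as the promoter peak. In erCriz0 2 of the 27 were up and 0 down, beside 4.88% and 0.41% of 10246 promoter peaks of expressed genes. In erAlec0 6 were up and 3 down, beside 7.69% and 2.05%, and in erLor0 1 was up and 3 down, beside 8.31% and 1.02%. Up in erAlec0 were the promoter peaks of COL4A1, LAMA3, COL4A5, COL12A1, ITGB3 and LAMB1, and down those of ITGA1, ITGA2 and ITGB5. In erLor0 COL4A1 was up and the same 3 integrin peaks were down, and in erCriz0 those of ITGA1 and ITGB8 were up.

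Promoter peaks as a class were above H3122p, with medians of 0.35, 0.26 and 0.41 in erCriz0, erAlec0 and erLor0, against 0.20, 0.44 and 0.24 for those of the members. RNA and promoter peak had the same sign in 15, 17 and 15 of the 27 members, or 55.6%, 63.0% and 55.6%. Over 11641 expressed genes the same was true of 52.0%, 51.1% and 50.7%. In 19 of the 27 the peak covers the outer end of the gene, and in the other 8 an inner start.

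**Figure D5:**
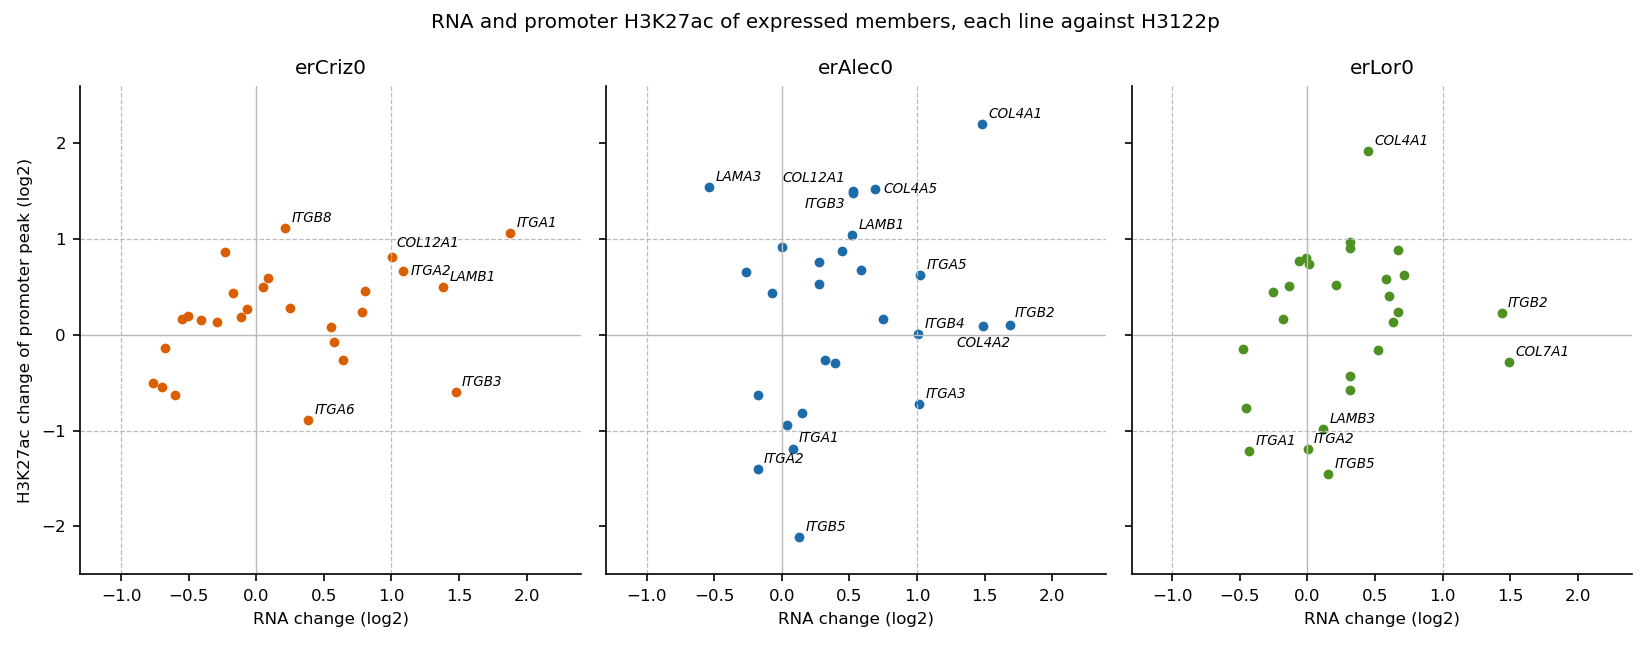
RNA change (horizontal, log2) and change of the promoter H3K27ac peak (vertical, log2) of 27 expressed members in each resistant line against H3122p, with dashed lines at a change of 1. COL4A1 in erAlec0 (1.48 and 2.20) and ITGA1 in erCriz0 (1.88 and 1.06) pass in both, while ITGA2 and ITGB5 in erAlec0 have lower peaks with RNA near 0.

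Genes that act around these receptors and matrix proteins were counted from lists of related genes, beside the shares of all genes given for each line above. Of 30 genes for collagen processing 4 were up in erCriz0, 1 in erAlec0 and 1 in erLor0. None was down in any line. LOX, which cross-links collagen, was 6.30 in H3122p, 8.67 in erCriz0, 7.002 in erAlec0 and 6.54 in erLor0. LOXL2, a related oxidase, was 5.66, 7.67, 6.82 and 6.71, and so passed in all 3 lines. The median change of the list was 0.07, 0.03 and 0.17.

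Of 30 adhesion plaque genes 0, 3 and 1 were up in erCriz0, erAlec0 and erLor0 and 2, 0 and 0 were down. NEDD9, a docking protein of integrin signalling, passed the limit in both directions, at -1.18 in erCriz0 and 1.47 in erAlec0. TNS4, a tensin that binds integrin tails, passed in erAlec0 (1.27) and erLor0 (1.12), and TNS2 was at -1.06 in erCriz0. The list medians were 0.00, 0.21 and 0.11.

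Of 16 other genes of the basement membrane and hemidesmosome 1, 2 and 0 were up and 2, 0 and 0 down. NTN4, a netrin that binds laminin, passed in erCriz0 (1.61) and erAlec0 (1.15). HSPG2, the proteoglycan perlecan, was at -1.21 in erCriz0, and TINAGL1 at -1.27. The medians were 0.05, 0.12 and 0.19.

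Of 13 other matrix receptors 1, 0 and 2 were up and 0 down in every line, with medians of -0.31, 0.16 and 0.05. CD44, the hyaluronan receptor, was 10.25 in H3122p, 11.57 in erCriz0, 10.88 in erAlec0 and 11.76 in erLor0. SDC2, a syndecan, passed in the last of these (1.06). Of 18 matrix glycoproteins 16 were in the table, of which 3, 2 and 0 were up and 1, 0 and 0 down, with medians of 0.32, 0.53 and 0.26. TNC (2.10) and SPARC (1.66) had the largest rises in erCriz0, ECM1 (1.52) and CCN1 (1.11) passed in erAlec0, and FBLN1 was at -1.02 in erCriz0. FN1, the ligand of the ITGA5 receptor, named after its values were seen, was 8.84 in H3122p, 10.19 in erCriz0, 9.72 in erAlec0 and 9.27 in erLor0. Its highest level thus fell in erCriz0 and that of ITGA5 in erAlec0.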

How the data were processed

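RNA-seq and H3K27ac ChIP-seq of 4 lines were analysed, 1 library of each kind per line, from 1 deposited table that joins every peak to the genes within 20 kb of it. The authors deposited gene and peak values on a log2 scale, as rlog values computed with DESeq2 over the 4 libraries. RNA reads had been aligned with HISAT2 (hg38), with HTSeq-count for the gene counts. The authors aligned ChIP reads with BWA, called peaks with MACS2, merged them over samples and counted with featureCounts. Versions, and the strand setting of the counting, were not given in the sources used here. A correlation score with its p-value and adjusted p-value, which the authors deposited beside every such pair, and their mean columns were not used. Columns of per-sample values without a sample numbered 0.

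Read depth cannot be recovered from rlog values, so depth is unknown and counting error cannot be stated. Peak and gene starts count from 0 in the table and 1 was added. Changes were differences of rlog, counted at 1, and no test was run. The members, the lists of related genes and the alternatives were chosen with earlier results of these data known. Values in all libraries were printed for members past 1 in any line and for type IV collagens, LAMA3, LAMB3, ITGA6, ITGB4 and ITGB1, and from each list the counts with the 2 largest rises and falls that passed; others are named after their values were seen. 1 gene of the lists is not reported here. Members were matched by Ensembl identifier to GENCODE 44, and 25 of 38 have the same coordinates there. Alternatives were the limits, centring, quantile normalization, filters on low values, subtraction of the median within 5 Mb and other ways to pair peaks. Python 3.11.15, pandas 2.3.3 and numpy 2.4.6 were used, and the scripts were tested on simulated data.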

Additional observations from a re-analysis of the deposited data

Results flagged for a closer look

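Several members passed the limit in 1 line and had a change of the other sign in another, each from 1 library. None of these differences was tested. ITGA1 was at 1.88 in erCriz0 and -0.43 in erLor0, and ITGA2 at 1.08 in erCriz0 and -0.18 in erAlec0. ITGB3 was at 1.47 in erCriz0 and -0.18 in erLor0. ITGB2 was at 1.69 in erAlec0 and 1.44 in erLor0 but at -0.60 in erCriz0. ITGB4 was at 1.01 in erAlec0 and -0.17 in erCriz0. COL4A1 was at 1.48 in erAlec0 and -0.23 in erCriz0, and COL4A2 at 1.49 and -0.0709. COL7A1 was at 1.49 in erLor0 and -0.51 in erCriz0.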

How the results depend on the processing

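No paired analysis was possible because each line has 1 library of each kind. Of 114 counts recomputed, 76 stayed within 1.5 times, and of 60 recomputed values of changes past the limit 0 turned sign and 8 fell under 1. With a limit of log2 1.5, erCriz0 had 9 members up beside 4 down. At that limit erAlec0 had 13 up, erLor0 had 9 up, and neither of them had any down. No share of all expressed genes is given for this limit. With a limit of 2 on the log2 scale, 0, 0 and 0 were up in erCriz0, erAlec0 and erLor0. Between lines that limit left 1 higher and 0 lower in erAlec0 against erCriz0, 1 and 1 in erLor0 against erCriz0, and 0 and 0 in erLor0 against erAlec0. Peaks up and down at log2 1.5 numbered 72 and 104 (erCriz0), 104 and 150 (erAlec0) and 56 and 157 (erLor0), and at 2 they numbered 0 and 0, 8 and 7, and 0 and 4. Peaks paired with 1 gene gave 2 and 17, 17 and 15, and 5 and 17, with a median in erAlec0 of 0.40 in place of -0.23. Peaks with a mean of at least log2 of 15 gave 24 down in erCriz0, 33 up and 48 down in erAlec0, and 49 down in erLor0. These fewer counts follow in part from fewer peaks, 77 and 241 of 443. Against the median within 5 Mb 31 peaks were down in erCriz0 and 31 up in erLor0, and centring gave 29 up in erLor0. With the mean over all paired peaks, 7 expressed members in erCriz0 had RNA and peaks of the same sign, in place of 15 of 27 with the promoter peak. In erAlec0 and erLor0 that mean gave 16 and 14 in place of 17 and 15. For these the cause was not tested. Subtracting the median of peaks of like mean level in 50 bins, chosen after the data were seen, kept all counts within 1.5 times. Depth is unknown, so what limits the low genes cannot be stated.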

Other observations

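Genes under the expression minimum, and COL5A1, which was expressed and changed little in RNA, also held moving H3K27ac peaks. LAMA1, an embryonic laminin alpha chain, had rlog 1.81 to 2.18 and so was not expressed, yet 6 of its 10 peaks were up in erLor0. None of the 10 covers an annotated LAMA1 start, and the 6 are paired with 3 to 5 genes each. The strongest, at the far end of the gene (chr18:6942087-6943310), was 3.29 in H3122p and 4.19, 4.41 and 5.26 in erCriz0, erAlec0 and erLor0. It was the largest rise of a member peak in erLor0 (1.97). At COL5A1 an intronic peak (chr9:134670337-134672300) was 4.32 in H3122p and 4.17, 7.50 and 5.23 in the same lines, with a change of 3.18 in erAlec0 against an RNA change of 0.35. At ITGA10, also not expressed, 11 of 23 peaks were down in erCriz0 and erAlec0 and 12 in erLor0, and these peaks are paired with 4 to 8 genes. These examples were chosen after their values were seen.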
